A study of Mus musculus with 117 samples.

Results

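The developmental transcription factor genes described here are 44 members of the Pax, Gata, Nkx, Lhx, Tbx, Otx and Dlx families, with Gsc, Six2, Six3 and Six6 and without the Hox clusters, of 20665 autosomal protein-coding genes. Their members were given by name, and each gene was read over its RefSeq span in GRCm38 with 2 kb added on each side. They lie on 15 chromosomes and cover 7745 bins of 200 bp. All 44 were found, no filter on low values was used, and no padded span overlaps another member's.

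Histone marks were mapped by chromatin immunoprecipitation sequencing (ChIP-seq) in hepatocytes, the main cell type of liver, of female mice aged 12 weeks. There were 9 inbred strains, and no treatment is named for any of them. WSB/EiJ, PWK/PhJ and CAST/EiJ are derived from wild mice, and C57BL/6J, NZO/HlLtJ, A/J, DBA/2J, 129S1/SvImJ and NOD/ShiLtJ are classical laboratory strains. Each strain has 13 libraries, for H3K4me1, H3K4me3, H3K27ac and H3K27me3 in 3 mice and 1 input, 117 libraries in all. The series' design text names H3K4me3 in place of H3K27me3, and the sample labels are followed here. The libraries of a strain lead to a single deposited segmentation, in which every 200-bp bin carries 1 of 14 chromatin states. A strain is therefore 1 value, all SDs are over 9 strains, and the p-values measure the spread between strains, not between mice. Inbred strains have common ancestors, so these values are not wholly independent. State numbers are names only: the sources used here do not say which marks make up a state, and the read depth behind the segmentations is unknown.

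These genes encode DNA-binding proteins that set up organs, limbs and regions of the brain in the embryo. In adult tissues that do not use them, such genes are classic sites of Polycomb repression, in which Polycomb repressive complex 2 places H3K27me3 over wide domains around CpG-rich promoters. In embryonic stem cells many of these promoters also carry H3K4me3, a combination called bivalent. A few members of the Gata family are used by the liver itself or by its non-parenchymal cells.

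State 13 was the leading state of this gene family in hepatocytes of every strain. The 44 genes had a median of 65.3% of their bins in state 13, averaged over strains, while the median of all genes was 0 and state 13 covered 11.1% ± 1.36 of autosomal bins (from 9.40% in C57BL/6J to 13.1% in WSB/EiJ). In 36 of the 44 genes state 13 held more bins than any other state. Of all genes, 53.7% had no state 13 bin in any strain and could not meet this. The state 13 share was above the strain's autosomal share for 40 of 44 genes, a call that 17.0% of all genes received. Each of those 40 genes was above in 9 of 9 strains with an adjusted p of 0.00498 by the exact permutation test that flips signs over strains (two-sided), adjusted over all genes by the Benjamini-Hochberg method; the smallest unadjusted p that 9 strains allow is 0.0039. Gata6 and Pax8 were called lower, against 70.9% of all genes. Gsc and Nkx6-2 received no call. At least 50% of the bins were in state 13 in every strain for 25 members and for 2.63% of all genes.

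The rarer states 10 and 12 filled much of the rest. State 10 covered 0.155% ± 0.0337 of autosomal bins and state 12 only 0.0753% ± 0.0144, yet 23 of 44 members had a mean state 10 share of at least 10%, against 1.07% of all genes. Of the states other than 13, state 10 was the largest in 24 members and state 14, which covered 76.6% ± 1.47 of autosomal bins, in 16. Joined, states 10, 12 and 13 held a median of 87.0% of the members' bins, against 0 over all genes. They held at least 90% in 21 members. The counts of 24, 16 and 21 members are given without a share of all genes. In 10 members every bin was in state 10, 12 or 13 in every strain, against 0.513% of all genes: Pax1, Nkx2-1, Nkx2-3, Nkx6-1, Six3, Six6, Otx2, Dlx2, Dlx5 and Dlx6.

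**Figure D1:**
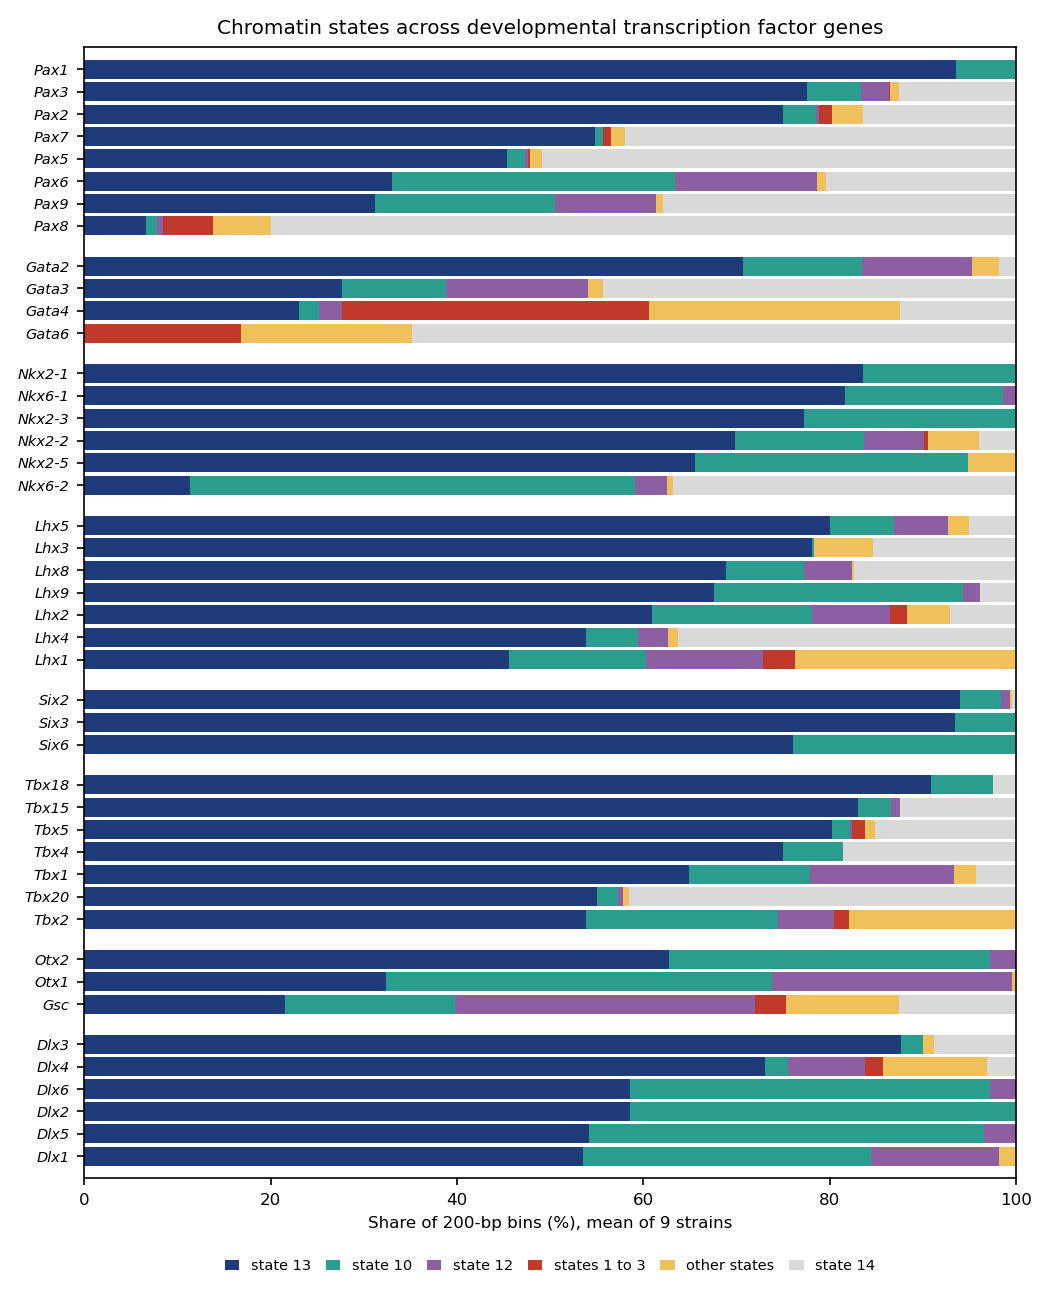
Mean share of 200-bp bins in each state (x axis, percent, mean of 9 strains) for the 44 genes (y axis, grouped by family). State 13 dominates most bars; Gata6 has none of it, Pax8 and Nkx6-2 have 6.68% and 11.4%, and Gata4 alone combines state 13 with a large share of states 1 to 3 (33.0%).

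Promoter sequences of 5 members are shown because they start in 5 different settings. RefSeq tables of GRCm38.p6 held a promoter for 32 of the 44 genes. The 250 bases before the 5′-most start in the table are given 5′ to 3′, with each CG dinucleotide in capitals, since CpG-rich sequence is the usual setting of Polycomb domains. Six2 starts in state 13 in all 9 strains, Gata3 in state 12 in all 9, Nkx6-2 in state 10 in all 9, Lhx3 in state 6 in all 9, and the state at the start of Pax8 differs between strains.
Six2, chr17:85688255-85688504, minus strand: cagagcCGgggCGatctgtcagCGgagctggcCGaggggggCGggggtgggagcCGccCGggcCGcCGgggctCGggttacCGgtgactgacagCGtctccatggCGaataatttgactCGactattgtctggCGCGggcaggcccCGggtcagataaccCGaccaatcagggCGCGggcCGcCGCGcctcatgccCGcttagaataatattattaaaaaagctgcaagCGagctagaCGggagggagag
Gata3, chr2:9878601-9878850, minus strand: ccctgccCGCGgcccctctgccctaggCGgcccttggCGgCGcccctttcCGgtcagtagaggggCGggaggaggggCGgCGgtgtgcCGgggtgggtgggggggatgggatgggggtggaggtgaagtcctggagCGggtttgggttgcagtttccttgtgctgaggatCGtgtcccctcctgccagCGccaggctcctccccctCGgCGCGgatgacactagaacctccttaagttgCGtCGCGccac
Nkx6-2, chr7:139582798-139583047, minus strand: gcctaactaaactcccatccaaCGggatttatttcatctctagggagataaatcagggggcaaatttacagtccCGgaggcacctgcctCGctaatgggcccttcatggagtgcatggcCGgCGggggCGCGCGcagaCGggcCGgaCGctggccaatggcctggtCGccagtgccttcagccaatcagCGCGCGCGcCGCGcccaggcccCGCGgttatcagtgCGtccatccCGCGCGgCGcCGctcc
Lhx3, chr2:26208250-26208499, minus strand: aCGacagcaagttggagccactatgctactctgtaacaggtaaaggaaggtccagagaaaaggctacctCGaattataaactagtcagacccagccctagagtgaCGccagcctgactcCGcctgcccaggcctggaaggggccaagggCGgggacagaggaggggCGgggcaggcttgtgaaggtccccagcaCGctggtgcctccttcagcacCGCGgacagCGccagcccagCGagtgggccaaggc
Pax8, chr2:24475600-24475849, minus strand: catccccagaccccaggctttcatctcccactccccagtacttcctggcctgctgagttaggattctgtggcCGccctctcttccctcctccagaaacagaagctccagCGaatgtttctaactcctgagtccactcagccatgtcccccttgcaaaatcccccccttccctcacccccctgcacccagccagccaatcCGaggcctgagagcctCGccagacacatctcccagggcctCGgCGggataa
Six2 and Nkx6-2 each hold 26 CG in this stretch, Gata3 19, Lhx3 11 and Pax8 6. Over the 32 members the median was 14 CG (from 4 to 30), over all 16457 promoters in the table it was 10 (from 0 to 56), and at least 10 CG were found in 22 of 32 members and in 51.8% of all promoters. CG reads the same on both strands. The 11 members whose start bin was in state 10 or 12 in all strains had a median of 19 CG, and the 8 whose start bin was in state 13 in all strains had 11.5. The 8 that changed between states 10, 12 and 13 had 9.5, and the 5 with another state in at least 1 strain had 22, so the medians followed no order by state. The groups overlapped: Six2 has 26 CG and starts in state 13, and Lhx9 has 4 and starts in state 10. These counts describe the printed windows only.

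The start site was where states 10 and 12 gathered. The start bin was in state 10, 12 or 13 in all 9 strains for 27 of 32 members, against 6.37% of 16457 genes, and in state 10 or 12 in all strains for 11 of 32 against 1.32%. Those 11 were Dlx1, Gata3, Lhx4, Pax9 and Tbx1, with state 12 in every strain, Dlx2, Lhx9, Nkx6-2 and Pax6, with state 10 in every strain, and Gata2 and Lhx1, with a mixture. Pax1, Pax2, Pax5, Pax7, Nkx2-3, Otx2, Six2 and Tbx4 had state 13 at the start in all strains. The 5 that left these states in at least 1 strain were Pax8, Lhx3, Lhx2, Gsc and Tbx20.

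On average over strains, 52.4% ± 5.80 of the members were in state 10 or 12 at the start bin and 41.0% ± 4.26 in state 13. Further out, state 13 held 79.9% ± 2.76 of members 2.2 kb downstream and 81.9% ± 3.04 at 3.6 kb upstream. These were local peaks. At 5 kb downstream state 13 held 62.5% ± 5.41 and states 10 or 12 held 27.8% ± 5.73. At 4.2 kb upstream the shares were 66.7% ± 3.83 and 21.2% ± 3.76. Over all genes the commonest state at the start bin was state 3, with 40.4% ± 1.20, and members had it in 0.347% ± 1.04, which is Pax8 in DBA/2J. The 32 members with a listed start thus almost wholly lacked the state that most often marks starts in these cells. None of these 32 started in state 1, 2 or 3 in all strains. Gata6 has no listed start and was not read here. Within 1 kb of its gene ends, state 1 held 34.8%, state 3 held 15.2% and state 14 the other 50%.

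**Figure D2:**
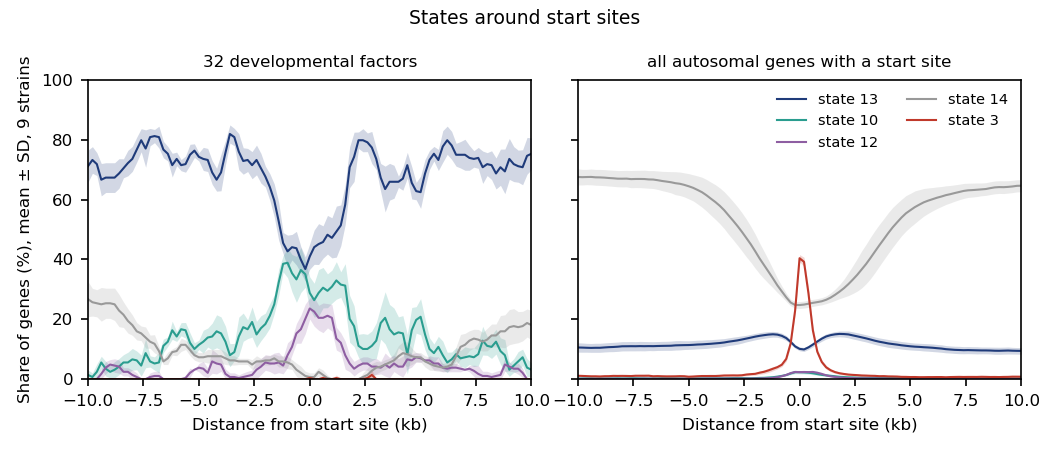
Share of genes in states 3, 10, 12, 13 and 14 (y axis, percent, mean of 9 strains with the SD shaded) against distance from the start site (x axis, kb, upstream negative) for the 32 members with a start site and for all 16457 genes with one. State 13 dips at the members' starts, where states 10 and 12 reach 52.4%, while state 3 peaks at the starts of all genes.

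The Pax genes encode paired-box factors. Pax1, needed for the vertebral column, had 93.6% ± 3.45 of its bins in state 13, with a lowest share of 88.5% in CAST/EiJ and WSB/EiJ, a median of 95.4% and a highest of 98.9% in DBA/2J. All strains lay far above the autosomal range, and the remaining bins were in state 10. Pax2, a kidney factor, and Pax3, a factor of muscle and neural crest precursors, had 75% ± 8.04 and 77.6% ± 11.3. Pax3 was lowest in CAST/EiJ (52.2%) and PWK/PhJ (66.2%), and the other 7 strains lay between 78.8% and 87.2%.

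Pax7, which marks muscle stem cells, had one of the widest spreads over strains. Its share was 32.2% in NOD/ShiLtJ, 48.9% at the median and 79.3% in DBA/2J, with a mean of 54.8% ± 16.6. DBA/2J, WSB/EiJ (76.5%) and CAST/EiJ (71.2%) stood above the other 6 strains, none of which passed 49.7%. The windows differed in how far they separated the strains. In chr4:139775001-139795000 state 13 held 90%, 77% and 67% of bins in DBA/2J, WSB/EiJ and CAST/EiJ and at most 11% in the others. In chr4:139795001-139815000 it held 92% to all of the bins in those 3 strains and 25% to 67% in the others. The window next to the start, chr4:139815001-139835000, held at least 94.0% in every strain.

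Pax5, the B cell factor and the longest gene of the set, had 45.4% ± 11.6 in state 13 and 50.8% in state 14. PWK/PhJ was lowest with 22.3% and CAST/EiJ next with 31.4%, the median was 48.1%, and A/J was highest with 57%. At the end with the start site, chr4:44672601-44712800, the mean was 80.1% ± 14.9, and PWK/PhJ had 47.3% there. Pax6, which acts in the eye and the pancreas, and Pax9, which acts in teeth and pharyngeal pouches, had only 33.0% ± 2.76 and 31.2% ± 2.87 in state 13. Their remainder was mostly state 10 (30.4% and 19.3%) and state 14 (20.4% and 37.9%). Within 1 kb of their ends state 13 was nearly absent, with 0.505% in Pax6 and 1.52% in Pax9, so that counting gene ends alone put both below the autosomal share.

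Pax8, a factor of thyroid and kidney, had the second lowest state 13 share of all members. It held 2.70% in DBA/2J, 6.08% at the median and 18.6% in WSB/EiJ, with a mean of 6.68% ± 4.85. In 8 strains it was below the strain's autosomal share and in WSB/EiJ above it, a mean difference of -4.37 points (adjusted p = 0.0317, exact sign-flip permutation test). State 14 covered 79.9% of its bins. Leaving out any 1 of 129S1/SvImJ, A/J, DBA/2J, NOD/ShiLtJ, NZO/HlLtJ and PWK/PhJ took the adjusted p to between 0.0541 and 0.0627, and at its gene ends alone the difference was 14.2 points. Under 10% in state 13 in at least 5 strains was met by Pax8 and Gata6 among members and by 77.9% of all genes.

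The low share of Pax8 hid a short block of state 13 near the start site. Over chr2:24458401-24477600, the end that holds the start, states 10, 12 and 13 joined covered 22.9% ± 7.01 of bins, from 9.38% in DBA/2J to 34.4% in the highest strain. In the rest of the gene state 13 occurred in WSB/EiJ alone, with 16% and 11% of bins in the windows chr2:24418401-24438400 and chr2:24438401-24458400. Its start bin was in state 13 in 6 strains, in state 14 in NOD/ShiLtJ and PWK/PhJ, and in state 3 in DBA/2J. Its promoter, printed above, has the fewest CG of the 5 shown, with 6. Counts as low were also found in Pax2 (5), Otx2 (6) and Tbx4 (6), which started in state 13 in all strains. A link between CG count and state was not tested.

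The Gata family, zinc-finger factors that bind GATA sequences, was split. Gata6, an endoderm and heart factor that also acts in liver development, had no bin in state 13 in any of the 9 strains (0 of 187 bins in each), and none in states 10 or 12. It was the only member under 10% in every strain, as were 66.0% of all genes, and the only one with no state 13 bin at all, as were 53.7%. State 14 covered 64.8% of its bins and states 1 to 3 together 16.8% ± 3.46, from 12.3% to 23.5%. These lay mostly in the part of the gene with the lower coordinates, chr18:11050401-11060400, where they held 53.1% ± 6.64. Of all members, mean shares of states 1 to 3 of at least 10% were met by Gata4 and Gata6, and by 41.1% of all genes.

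Gata4, the partner of Gata6 in endoderm and heart and a factor of liver sinusoidal endothelium, was divided along its length. It had 23.0% ± 3.14 in state 13, from 15.6% in PWK/PhJ through a median of 23.1% to 26.2% in C57BL/6J, above the autosomal share by 12.0 points on average. States 1 to 3 held 33.0% ± 4.93. Both shares at 10% or more was met by no other member and by 0.677% of all genes. In the windows chr14:63196801-63216800 and chr14:63216801-63236800 no strain had a bin in state 13, and states 1 to 3 held 31.8% ± 7.10 and 63.3% ± 10.05. At the other end, chr14:63256801-63273800, the proportions were turned around, with 75.8% ± 8.83 in state 13 and no bin in states 1 to 3 in any strain.

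Gata2, a factor of blood progenitors and endothelium, had 70.8% ± 4.46 in state 13. Gata3, the T helper cell factor, had 27.6% ± 6.05, from 20% in NOD/ShiLtJ to 38.3% in 129S1/SvImJ, with 44.3% in state 14. Around its start, chr2:9875001-9885000, states 10 and 12 held 76.7% ± 7.87, and the far end, chr2:9855001-9865000, was 97.6% ± 2.96 state 14.

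**Figure D3:**
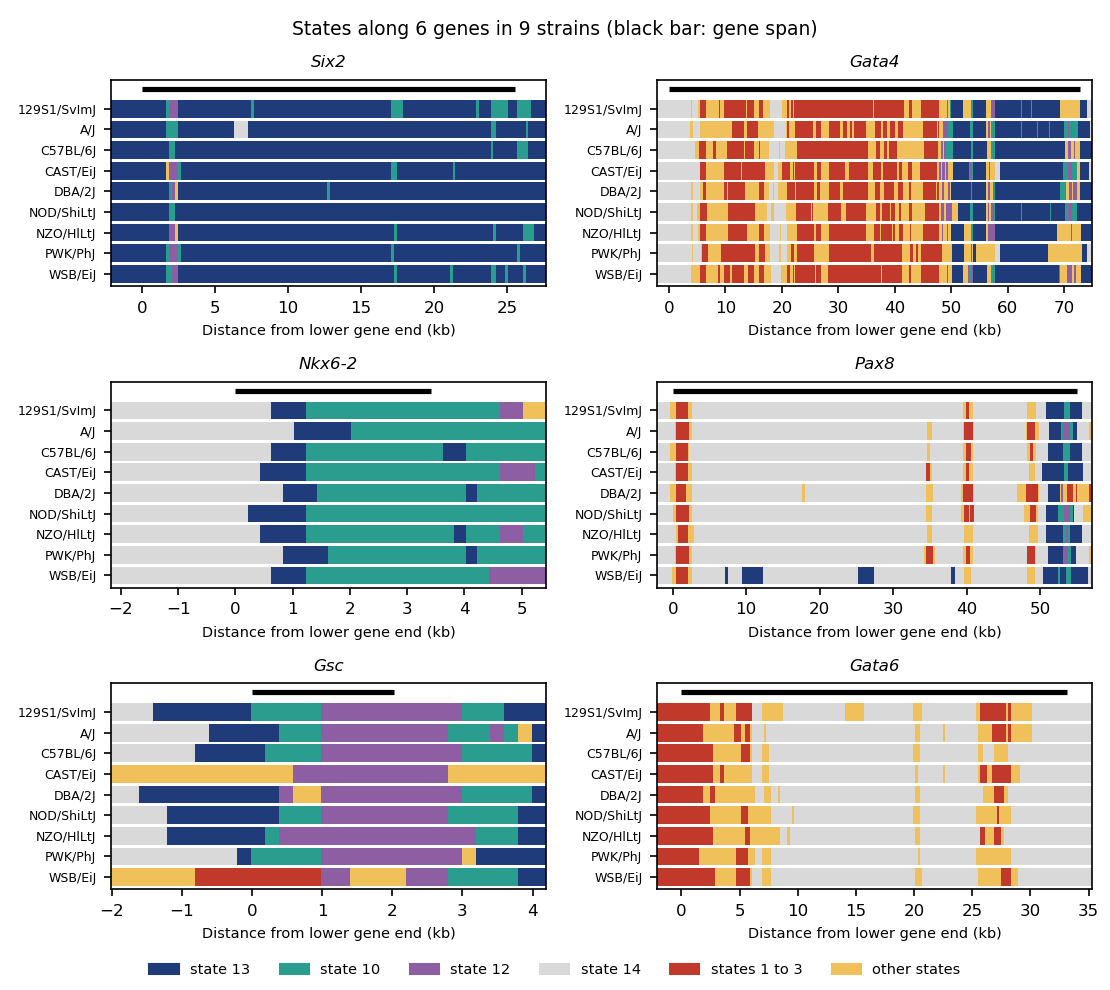
States of 200-bp bins along 6 genes (x axis, kb from the gene end with the lower coordinate; rows, 9 strains; black bar, gene span). Six2 is in state 13 nearly throughout, Nkx6-2 has state 10 as its leading state, Gsc has state 12 at its core, Gata4 passes from states 1 to 3 to state 13, Pax8 has state 13 near its start (right end) in all strains and elsewhere in WSB/EiJ alone, and Gata6 has none.

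Of the Nkx homeobox genes, 5 of 6 were at least 50% in state 13 in every strain. Nkx2-1, the thyroid and lung factor, had 83.6% ± 11.9, and Nkx6-1, a pancreatic beta cell factor, had 81.6% ± 6.21. Nkx2-5, the heart factor, had 65.6% ± 8.52, with PWK/PhJ highest (82.7%). Nkx2-2, which patterns the ventral neural tube, had 69.8% ± 6.08. Nkx2-3, which acts in spleen and gut, ranged from 51.3% in WSB/EiJ through a median of 79.5% to 89.7% in DBA/2J. WSB/EiJ was set apart from the next strains, 129S1/SvImJ and NOD/ShiLtJ with 71.8% each, and every bin of Nkx2-3 outside state 13 was in state 10. On average 27.9% of its bins differed between 2 strains.

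Nkx6-2, an oligodendrocyte and neural tube factor, was the exception of its family. Its state 13 share of 11.4% ± 2.28, from 7.89% to 13.2%, overlapped the autosomal range, with a difference of 0.35 points and an adjusted p of 0.749 in the exact sign-flip permutation test. State 10 held 47.7% of its bins (42.1% to 55.3%), state 14 36.8% and state 12 a smaller share. Its longest state 13 segment averaged 756 bp. It was called higher with states 10, 12 and 13 joined (51.3 points, adjusted p = 0.00497), with no padding (9.93 points, adjusted p = 0.00492) and with 5 kb of padding (8.39 points, adjusted p = 0.00958).

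All 7 LIM homeobox (Lhx) genes were called higher. Lhx5, a forebrain factor, had 80.0% ± 8.32, Lhx8, which acts in basal forebrain and oocytes, 68.9% ± 9.91, and Lhx9, a gonad factor, 67.6% ± 3.09. Lhx2, a forebrain and eye factor that hepatic stellate cells also use, had 61.0% ± 5.80, and Lhx4, a pituitary factor, had 53.9% ± 8.07. Lhx3, the other pituitary factor of the family, was the steadiest of these, with 78.1% ± 1.64 and a single state 13 segment per strain of 11089 ± 226 bp. Its 5′-most start, whose promoter is printed above, was in state 6 in all strains, while its second start further inside the gene was in state 13 in all 9.

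Lhx1, needed for the head and the kidney, had 45.6% ± 8.01 in state 13, from 32.2% in NOD/ShiLtJ through a median of 47.5% to 54.2% in 129S1/SvImJ and PWK/PhJ. On average 32.5% of its bins differed between 2 strains. No bin of Lhx1 was in state 14 in any strain, and its differing bins mostly involved states other than 10, 12, 13 and 14, with state 5 at 11.3% ± 5.15 and state 11 at 7.72% ± 6.84.

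Six2, Six3 and Six6 encode homeobox factors, and each was at least 50% in state 13 in every strain. Six2, which keeps nephron progenitors from differentiating, had 94.0% ± 3.65, the highest mean of all members, from 85.9% in 129S1/SvImJ through a median of 94.6% to 98.7% in NOD/ShiLtJ. Six3, a forebrain and eye factor that lies next to it on chromosome 17, had 93.4% ± 5.15, from 85.5% in 129S1/SvImJ through 91.6% to 98.8% in C57BL/6J, DBA/2J and NOD/ShiLtJ. For both genes 129S1/SvImJ was the lowest strain, and every strain lay far above the autosomal range. Six6, an eye and pituitary factor, had 76.1% ± 3.92 in its span with the rest in state 10. A further state 13 segment of 44178 ± 8951 bp, from 21000 bp in 129S1/SvImJ to 48800 bp in CAST/EiJ, reached its padding from the side with lower coordinates and ended before the gene itself in every strain.

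All 7 T-box genes were called higher. Tbx18, a factor of the epicardium, had 90.9% ± 4.68, from 82.9% in CAST/EiJ through a median of 93.3% to 95.7% in NZO/HlLtJ. CAST/EiJ, PWK/PhJ (85.4%) and WSB/EiJ (87.8%), the strains derived from wild mice, held its 3 lowest values. Tbx15, a factor of skeleton and muscle, had 83.1% ± 4.56, Tbx5, of heart and forelimb, 80.3% ± 2.68, and Tbx1, of the pharyngeal arches, 64.9% ± 6.27.

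Tbx4, the hindlimb and lung factor, had 75% ± 10.9, from 54.7% in PWK/PhJ through 74.7% to 93.5% in NZO/HlLtJ. Tbx20, a heart factor, had 55.1% ± 14.7, from 26.0% in PWK/PhJ through 59.4% to 72.9% in WSB/EiJ. PWK/PhJ was the lowest strain in both, and state 14 took up the difference. In the window chr9:24718801-24738800, at the end of Tbx20 away from its start, state 13 held 6.0% to 9.0% of bins in C57BL/6J, PWK/PhJ and DBA/2J and 33.0% to 68.0% in the other 6 strains. At its start end, chr9:24758801-24776400, the mean was 84.0% ± 9.57.

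Tbx2, which lies beside Tbx4 and acts in heart and limb, had 53.9% ± 9.94, from 41.8% in WSB/EiJ through a median of 50.7% to 76.1% in DBA/2J. DBA/2J stood apart: the next strain, PWK/PhJ, had 58.2%, and state 10 held 2.99% of the gene in DBA/2J against 13.4% to 31.3% elsewhere. On average 30.4% of its bins differed between 2 strains. At its gene ends alone the call was lost (3.09 points, adjusted p = 0.871).

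Otx2, a forebrain factor, had 62.7% ± 8.32 in state 13 and 34.5% in state 10. Otx1, its close relative, had 32.3% ± 5.89 in state 13, 41.5% in state 10 and 25.8% in state 12. Nearly all bins of Otx1 were thus in these 3 states (99.6% ± 0.787), although state 13 was not the leading one. At the ends of Otx1 alone the difference of state 13 from the autosomes was 1.07 points (adjusted p = 0.604).

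Gsc, the goosecoid gene of the embryonic organizer, had the largest share of bins that differed between strains among the members. Its state 13 share was 0 of 31 bins in CAST/EiJ, 19.4% at the median and 35.5% in DBA/2J, with a mean of 21.5% ± 12.2. It was above the autosomal share in 7 of 9 strains, by 10.4 points on average, with an adjusted p of 0.0575. Without CAST/EiJ the adjusted p was 0.0275 and without WSB/EiJ 0.0449. State 12 was its leading state, with 32.3%, and held 16.1% to 45.2% in every strain. On average 44.6% of its bins differed between 2 strains, more than in 96.1% of all genes. CAST/EiJ and WSB/EiJ set it apart: WSB/EiJ had 29.0% of bins in states 1 to 3, which no other strain had, and CAST/EiJ had 22.6% in state 11 and 19.4% in state 9. The gene is short, and without padding the difference from the autosomes was -2.97 points (adjusted p = 0.350).

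The 6 Dlx genes, distal-less homeobox factors of the face, limbs and forebrain, form 3 neighbouring pairs. Dlx3 had 87.7% ± 14.5 in state 13, from 61.7% in PWK/PhJ through a median of 93.6% to 97.9% in DBA/2J, NZO/HlLtJ and WSB/EiJ. PWK/PhJ and A/J (63.8%) lay well below the other 7 strains, whose lowest was 89.4%. Its neighbour Dlx4 had 73.1% ± 9.49, and A/J was lowest there with 58.0%, while PWK/PhJ was among the highest with 84.0%. The pair did not share its low strains in full.

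Dlx2 had the widest range of all members. It held 21.6% in NOD/ShiLtJ, 62.2% at the median and 75.7% in C57BL/6J and DBA/2J, with a mean of 58.6% ± 16.8. All of its other bins were in state 10, which took 78.4% in NOD/ShiLtJ. Its neighbour Dlx1 was also lowest in NOD/ShiLtJ (30.0%) and highest in C57BL/6J and DBA/2J (66.0%), with a mean of 53.6% ± 12.7. Dlx5 and Dlx6 had 54.2% ± 7.02 and 58.6% ± 4.37, with state 10 at 42.3% and 38.6%. In 5 strains the longest state 13 segment that touched Dlx5 was also the longest at Dlx6, 9830 bp away. No other neighbouring pair of members shared its longest segment in any strain. Without padding Dlx5 was no longer called (1.57 points, adjusted p = 0.766).

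**Figure D4:**
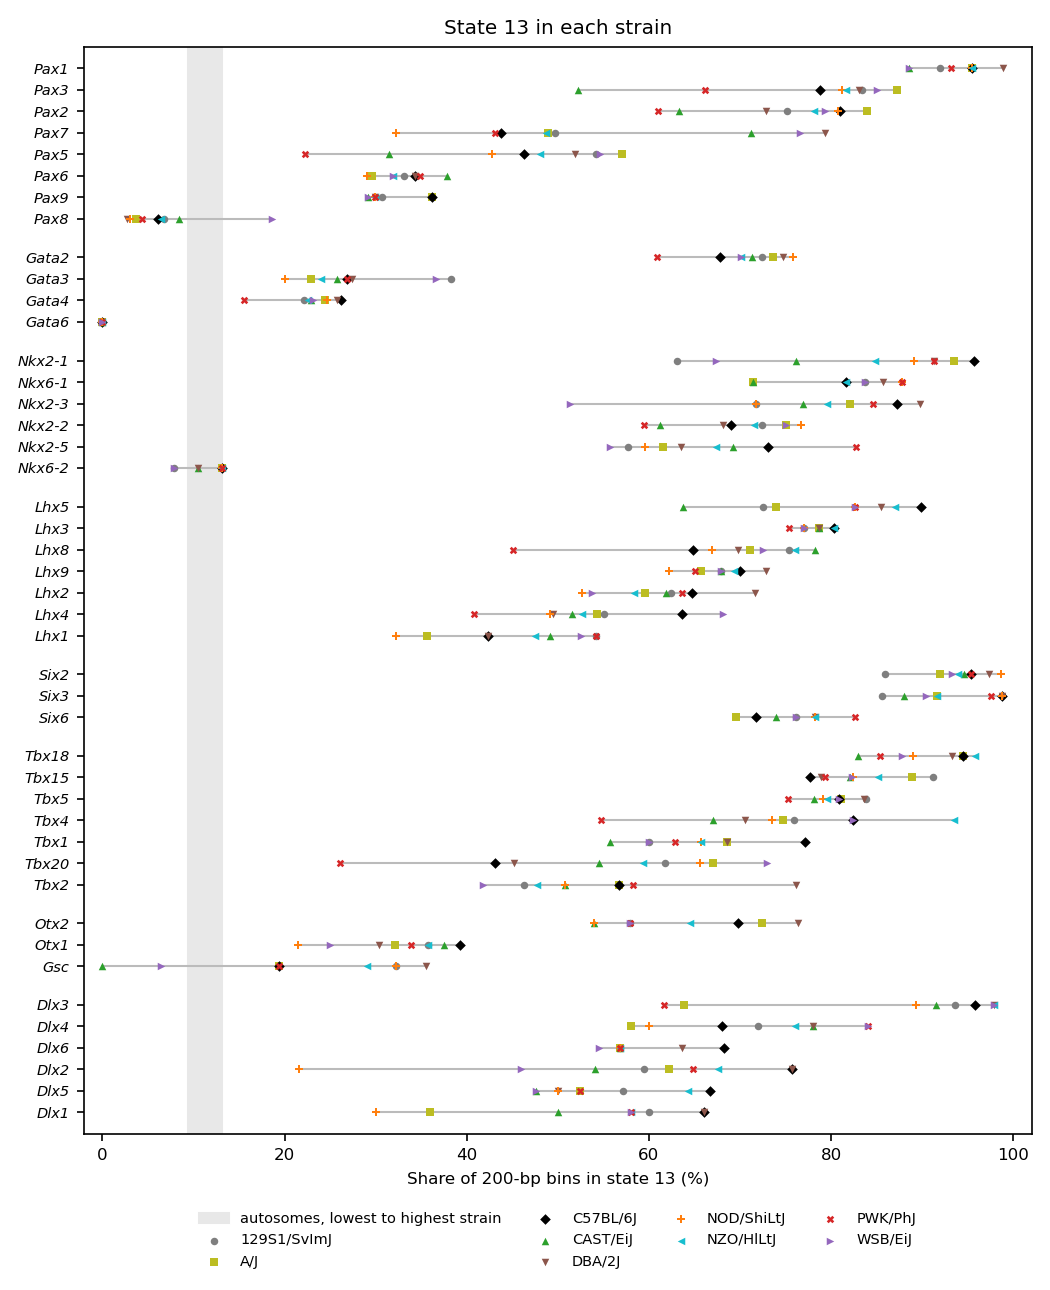
Share of bins in state 13 (x axis, percent) for each of the 44 genes (y axis) in each strain (symbols); the grey band runs from the lowest to the highest autosomal share, 9.40% to 13.1%. Gata6 and most strains of Pax8 lie to the left of the band, Nkx6-2 straddles it, and Dlx2, Pax7 and Tbx20 span the widest ranges.

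Strain ranges of at least 25 points were seen in 17 of 44 members and in 21.1% of all genes. A gene without state 13 has a range of 0, as had 53.7% of all genes. The 21.1% are 4362 genes, all of them among the 9572 with any state 13 bin, so wide ranges were not particular to the members. The bins of a member differed between 2 strains in 18.3% of cases at the median, close to the 20.1% of all genes. The kind of exchange tended to differ with the size of the gene. In 11 members, with a median of 465 bins, most differences were between states 13 and 14, and in 16 members, with a median of 51 bins, most were between state 13 and states 10 or 12. The other 17 had no such majority. Among the former were Pax5 (87.7% of its differing bins), Tbx15 (86.5%) and Tbx20 (85.2%). Among the latter were Pax1, Nkx2-1, Nkx2-3, Six3, Six6 and Dlx2, with all of their differing bins each. These last genes held only states 10 and 13, so no other difference was possible in them. The 10 members with every bin in state 10, 12 or 13 could not differ between states 13 and 14, so their composition limited the kind of exchange. Gata4 and Gata6 stood outside both groups, with 91.9% and all of their differences, in that order, in other combinations. Size did not set the kind in every gene. Dlx3, with 47 bins, had 70.1% of its differences between states 13 and 14. Six2, with 149 bins, had 74.6% between state 13 and states 10 or 12. Across the 44 genes the Spearman correlation of span with the state 14 share was 0.65, with the state 10 share -0.67 and with the state 13 share -0.045. This is a description over genes read from the same 9 segmentations, and a longer span holds more sequence away from its start.

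**Figure D5:**
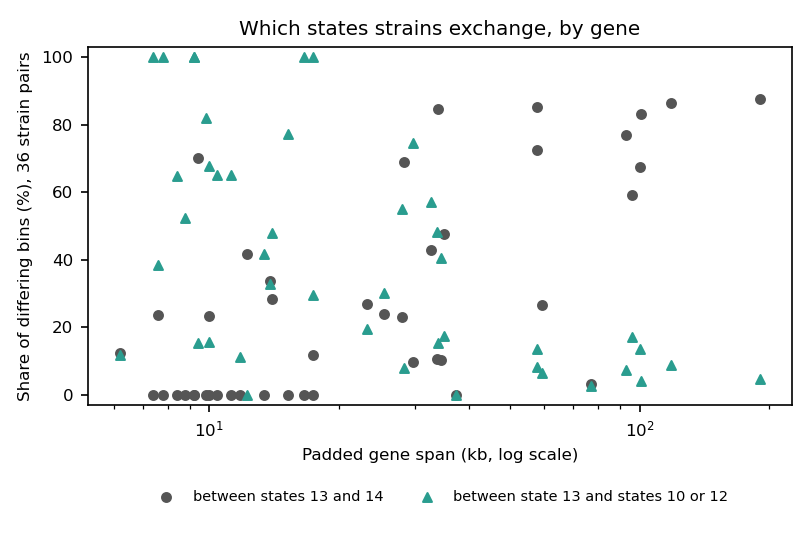
Share of differing bins, over 36 strain pairs, that lie between states 13 and 14 (circles) or between state 13 and states 10 or 12 (triangles), in percent (y axis), against the padded span in kb (x axis, log scale), for the 44 genes. Exchange with state 14 is the main kind in several long genes such as Pax5 (87.7%). Exchange with states 10 or 12 is the main kind in many short ones such as Dlx2 (all), which holds only states 10 and 13. The short Dlx3 is an exception, with 70.1% between states 13 and 14.

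No strain lacked the pattern. The members' median state 13 share was lowest in PWK/PhJ (60.2%) and highest in DBA/2J (72.3%), and the number of members with at least 50% was 29 in NOD/ShiLtJ and 33 in 129S1/SvImJ at the extremes. PWK/PhJ alone had the lowest state 13 share in 12 of 44 members, against 9.40% of all genes and 20.3% of the 9572 genes with any state 13 bin. Its mean state 14 share over members was 20.6%, against 10.8% to 15.3% in the other strains. NOD/ShiLtJ alone was lowest in 9 members, against 1.49% of all genes and 3.22% of those with any state 13 bin. The count of 40 members called higher was also 40 without PWK/PhJ. WSB/EiJ had the highest autosomal share of state 13 (13.1%) and was alone highest in 3 of 44 members, against 11.9% of all genes and 25.7% of those with any state 13 bin. The strains most often alone highest were DBA/2J, in 8 members, and C57BL/6J, in 7. Among genes with any state 13 bin their shares were 4.06% and 6.91%, in that order. Their autosomal shares were the lowest, 9.44% and 9.40%.

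Other genes were counted from lists of the same families and of liver cells. Of 27 further genes of these families and their close relatives, 19 were higher, 5 lower (Six5, Tbx3, Tbx6, Tbx10 and Mga) and 3 had no call, with a median state 13 share of 32.3%. Tbx3, a liver progenitor factor beside Tbx5, had 0.362% ± 1.09. All 39 Hox cluster genes were higher, with a median of 83.5%. All 17 hepatocyte transcription factors were lower, none had a bin in state 13, and their median share of states 1 to 3 was 78.3%, against 0 in the members. Of 18 Polycomb group genes 16 were lower and 2 higher (Bmi1 and Cbx7).

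Markers were read to check the label hepatocyte. All 10 hepatocyte markers were lower in state 13, and 9 of them had none, with a median of 84.2% in states 1 to 3 (from 39.8% to 100%). Of all genes 17.0% were higher and 70.9% lower. Among markers of other liver cells 1 of 8 endothelial genes was higher (Kdr) and 4 lower, 2 of 8 stellate genes were higher and 3 lower, 3 of 6 bile duct genes were higher and none lower, and 4 of 7 Kupffer and leukocyte genes were higher and 2 lower. The median share of states 1 to 3 was 6.41% for endothelial, 0 for stellate, 0.115% for bile duct and 0.095% for Kupffer and leukocyte genes. The highest single genes of these lists had 53.3%, 16.9%, 19.7% and 23.5%, in that order. The part of other cell types in the states of Gata4, Gata6 or Lhx2 was not tested.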

How the data were processed

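Histone mark ChIP-seq and input libraries of hepatocytes from 9 strains were combined by the authors into 1 segmentation per strain, per the file headers and the file each library's label names. The deposited value is a category, the number of 1 of 14 states per interval, in steps of 200 bp. It is no count, signal or score. The build is mm10 and the tools FastQC 0.11.5 and MACS 1.4.2, per the submitters' processing notes, which give no roles. The segmentation tool, aligner, depth and mark content of states are not given in the sources used here, so no counting error is given.

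Gene spans came from RefSeq tables of GRCm38.p6, the same build as mm10. All bins overlapping a span with 2 kb on each side were counted on the 19 autosomes. The share in state 13 was compared with the strain's autosomal share over 20665 protein-coding genes by the exact permutation test that flips signs over strains (two-sided, 512 patterns) with Benjamini-Hochberg adjustment at 0.05. Start sites came from the promoter table, which held 32 members. Windows within genes tile the padded span from its lower end. State 13 segments were followed beyond the span to their ends.

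Each of the 44 members could be named. Full strain values were given for those under 10% in at least 5 strains and for the 5 highest in mean share, in strain range and in share of differing bins over 36 strain pairs. The windows described, the promoters printed and the examples of further members were chosen after values were seen. The members and lists were chosen with earlier results of these data known. Code was tested on simulated data. Alternatives covered padding, bin rules, gene ends, joined states, thresholds, the reference and each strain left out. A file joining all strains was not used. Values were computed with numpy 2.4.6 and pandas 2.3.3 under Python 3.11.15, and plots with matplotlib 3.10.9. The permutation test and its adjustment used numpy, and scipy 1.17.1 was part of the same environment.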

Additional observations from a re-analysis of the deposited data

Results flagged for a closer look

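A single strain stood apart from the other 8, by Dixon's critical value for the gap to the nearest strain over the whole range, in 6 of 48 sets of strain values examined, where chance alone gives about 2.4. Pax8 had 18.6% of bins in state 13 in WSB/EiJ, Gata4 had 15.6% in PWK/PhJ, Nkx2-3 had 51.3% in WSB/EiJ, Lhx8 had 45.1% in PWK/PhJ and Tbx2 had 76.1% in DBA/2J. The mean state 14 share over the 44 members was 20.6% in PWK/PhJ. For Pax8 the gap was 0.638 of the range and for Gata4 0.610.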

How the results depend on the processing

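Of 792 differences of single members from the autosomes recomputed under alternatives, 762 kept their direction and their side of the threshold, and 35 of 44 members did so under all of them. The count of members called higher stayed between 36 and 43. Counting gene ends alone turned Pax6 to -10.6, Pax9 to -9.54 and Pax8 to 14.2 points, took the members under 10% in every strain to 3 and in at least 5 strains to 6, and took the median share to 58.8%. The median of all genes is 0, so that no share can lie below it: with it as the reference 0 members were lower by construction, and Pax8 stood at 6.68 and Gata6 at 0 points. Joining states 10, 12 and 13 left 1 member lower, a median of 87.0% and 11 members of wide range. Gsc was at -2.97 points without padding, which put 4 members under 10% in at least 5 strains. Nkx6-2 was at -0.52 with single-bin segments not counted, and between -0.079 and 1.04 with a strain left out, where -0.0022 was also reached. Other thresholds gave 3 members under 25% in every strain and 5 in at least 5 strains, 1 with no bin in at least 5 strains, 7 with at least 75% in every strain and 3 with a range of at least 40 points. Leaving out each strain in turn gave 40 to 41 members higher, 1 to 2 lower, 1 to 2 under 10% in every strain (2 without WSB/EiJ, when Pax8 joined Gata6), 25 to 26 mostly in state 13, a median of 64.0% to 66.2% and 14 to 17 of wide range. No paired analysis was possible because each strain has 1 segmentation that combines its libraries. The unknown depth limits every share.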
